A study of Mus musculus with 7 samples.

Results

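The 9 genes of hormone signaling followed here through single-cell RNA profiles of mouse mammary tumors were the receptors Esr1, Pgr and Prlr, the estrogen receptor partner Cited1, the secreted or membrane-bound signals Areg, Wnt4, Tnfsf11 and Ptn, and the ion transporter Slc12a2. They were chosen by symbol, and all 9 of the 9 had a row among the 33710 genes of the matrices, counted without mitochondrial genes. The measurements came from 7 mammary tumors, each the tumor of 1 MMTV-PyMT;HK2 f/f control mouse on a C57BL/6 background, labelled wild type and collected 3 months after the tumor became palpable. MMTV-PyMT is a transgene in which a mouse mammary tumor virus promoter, active mostly in mammary epithelium, drives the polyoma middle T oncogene, and HK2 f/f marks a hexokinase 2 gene flanked by loxP sites that stayed intact because these mice carried no Cre. All 7 mice received tamoxifen on 7 days, as did the HK2-deleted mice of the same study, which were not analysed here, so every value below comes from animals given a drug that also binds the estrogen receptor. Replicates 1, 2, 3 and 4 carry the letters CB in their titles and replicates 5, 7 and 8 the letters WT, and the labels do not say what the letters mean.

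In the resting and pregnant mammary gland, estrogen and progesterone act on a minority of luminal cells that carry their receptors, called hormone-sensing cells. These cells pass the message on to neighbors that lack the receptors through paracrine signals, such as amphiregulin for estrogen and Wnt4 and RANK ligand for progesterone. Prolactin acts through its own receptor, JAK2 and STAT5, and prepares the alveolar epithelium for milk secretion.

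Drop-seq, which captures single cells in droplets with barcoded beads, gave 15047 cells with 200 to 6000 genes out of 37000 barcodes, between 1133 and 4780 per mouse. Cells held 962677 to 4471473 unique molecular identifiers (UMIs, counted RNA molecules) per mouse, and the median cell held 527 to 694. There were 5 barcode sequences, in 10 cells, that occurred in more than 1 library. Cells were clustered on other genes, with the members left out of the genes used, and clusters were named from marker lists. UMIs were then summed for each mouse and class with at least 10 cells and expressed as CPM (counts scaled to a common total of UMIs per class and mouse). The classes were tumor cells (6177), hormone-sensing cells (1693), fibroblasts (1027), macrophages (2637) and T/NK cells (2212), each with sums from 7 mice, myoepithelial cells (280) with sums from 5 mice and endothelial cells (141) with sums from 3 mice.

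The hormone-sensing class was 1 cluster, named from its own marker list. The levels of those markers therefore describe the class and do not test its name. In these cells 9 of the 13 markers were found in at least 10% of cells. Fxyd2, Krt19, Wfdc2 and Ly6a were all higher than in tumor cells in 7 of 7 mice, as was Tbx3, while Tspan8 was lower in 7 of 7 and Spdef did not pass the test. Foxa1, a factor that opens chromatin for the estrogen receptor, measured 83.0 CPM against 3.23 CPM in tumor cells (higher in 6 of 7 mice). The genes that led the cluster by fold were Fgb, Ido1, Fam25c, Pcp4 and Upk3a, none of which was on the list. The transgene itself (PYMT) was at 382 CPM in these cells and at 2067 CPM in tumor cells, lower in 7 of 7 mice. The fitted log2 difference was -2.87 ± 0.15 (SE). PYMT was on the marker list that named the tumor cells, so no p is given.

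Pooled over the mice, the hormone-sensing cells held most UMIs of 8 of the 9 members. They made up 11.3% of cells and held 17.1% of all UMIs, but 93.5% of the UMIs of Cited1, 91.0% of Pgr, 87.2% of Wnt4 and 83.3% of Prlr. For Ptn the share was 80.8%, for Slc12a2 80.5%, for Areg 75.3% and for Esr1 66.5%. Tnfsf11 was the exception, with 19.1% of its UMIs there and 67.6% in T/NK cells. Replicate 4 alone supplied 999 of the 1693 hormone-sensing cells, and the shares within single mice reached lower. For Ptn the median mouse had 44.1% (22.1% to 97.3%), so most of its UMIs were in other cells in some mice. The lowest mouse had 16.1% for Areg, 23.8% for Esr1, 45.6% for Slc12a2 and 48.7% for Prlr, with medians of 67.4%, 75.0%, 57.8% and 72.9%. For Pgr, Wnt4 and Cited1 no mouse was under 50%.

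**Figure D1:**
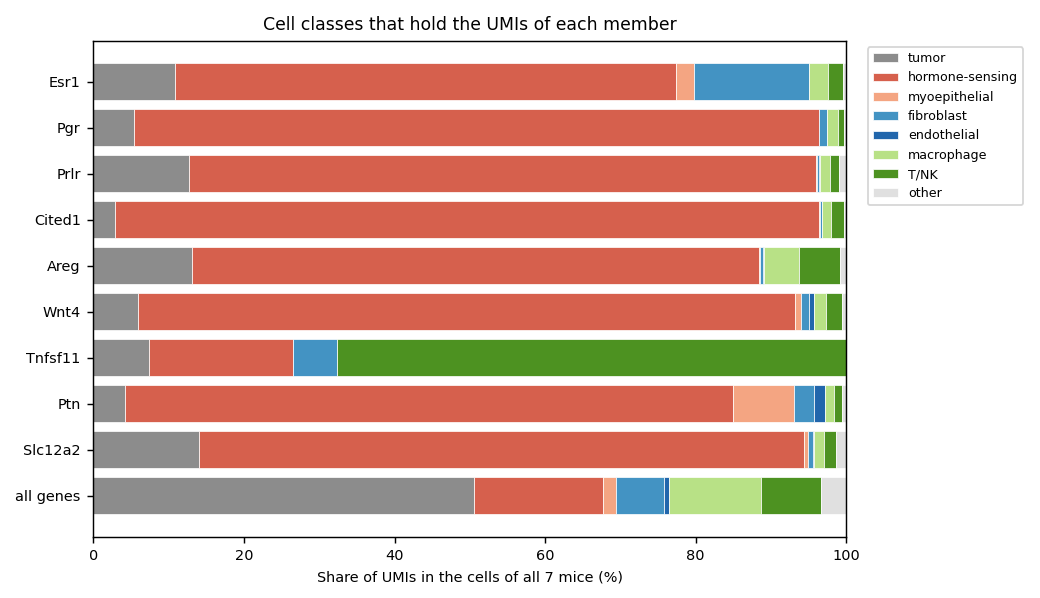
Horizontal bars show, for each of the 9 members and for all genes together, the share (%) of UMIs that fell in each cell class, pooled over the cells of 7 mice. Hormone-sensing cells take 17.1% of all UMIs but between 66.5% and 93.5% of those of every member other than Tnfsf11, for which T/NK cells take 67.6%; in single mice the share was as low as 16.1% for Areg and 22.1% for Ptn.

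Promoters are given for the 3 receptors, the genes through which the hormones act on these cells. RefSeq (build GRCm38.p6) listed a promoter for 8 of the 9 members. Below are the 250 bases before a start site, 5′ to 3′ on the gene's strand, with capitals for a match to 1 of 4 motifs searched on both strands: the palindromic estrogen response element, TTCNNNGAA (STAT5), the palindromic element of the progesterone and glucocorticoid receptors, and TGTTTAC (forkhead factors).
Prlr, chr15:10223656-10223905, plus strand: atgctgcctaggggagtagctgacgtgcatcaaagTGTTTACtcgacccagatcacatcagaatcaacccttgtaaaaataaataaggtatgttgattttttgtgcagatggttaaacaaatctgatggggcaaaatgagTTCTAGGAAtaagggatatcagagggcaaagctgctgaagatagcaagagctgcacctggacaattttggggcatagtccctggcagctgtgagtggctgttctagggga
Esr1, chr10:4709908-4710157, plus strand: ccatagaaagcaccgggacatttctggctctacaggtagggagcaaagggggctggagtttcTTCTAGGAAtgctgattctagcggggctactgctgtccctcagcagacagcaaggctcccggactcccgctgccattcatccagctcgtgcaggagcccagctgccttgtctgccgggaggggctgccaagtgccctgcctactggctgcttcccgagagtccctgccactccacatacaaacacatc
Pgr, chr9:8899583-8899832, plus strand: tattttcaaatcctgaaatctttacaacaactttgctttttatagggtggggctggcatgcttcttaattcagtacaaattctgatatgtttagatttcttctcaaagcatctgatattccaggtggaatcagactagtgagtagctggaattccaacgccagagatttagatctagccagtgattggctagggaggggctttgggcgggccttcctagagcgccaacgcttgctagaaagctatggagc
The Prlr window held a forkhead match at position -215 from the start and a STAT5 match at position -110. The Esr1 window held a STAT5 match at position -188. The other 2 listed starts of Prlr, the other start of Esr1 and the windows of the remaining members held no match to any of the 4. Of 32851 promoters of the same 300-base length, 8.30% held the STAT5 letters, 3.65% the forkhead letters, 0.0700% the estrogen response element and 0.00913% the progesterone and glucocorticoid element. A match is a description of letters and not evidence of binding.

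The question put first to the members was how far their levels in hormone-sensing cells differed from those in tumor cells of the same mice. Of 14032 genes tested with the mouse as a block, 26.4% were called at an adjusted p under 0.05, 9.66% as higher and 16.7% as lower in hormone-sensing cells. Pgr, with 15 UMIs in tumor cells, passed the filter of 20 UMIs only through its 254 UMIs in hormone-sensing cells, so that its call says little, and Tnfsf11 did not pass. The other 7 members had more than 20 UMIs in each class and were called higher, in 7 of 7 mice each. Since the median gene had a fitted log2 difference of -0.18, the members' values below stand against that shift.

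Prlr encodes the receptor for prolactin and lies on chromosome 15, from 10177238 to 10349180 (GRCm38, plus strand), overlapping Gm21973 on the same strand. In hormone-sensing cells its level ranged from 1906 to 2690 CPM with a median of 2163 CPM. In tumor cells it ranged from 56.4 to 150 CPM with a median of 131 CPM. The ranges lay far apart. The means were 2212 ± 296 and 114 ± 37.3 CPM (SD, n = 7), and the fitted log2 difference was 4.10 ± 0.15 (SE, adjusted p = 2.07e-114). When each cell was thinned to 300 UMIs, 47.0% of 1547 hormone-sensing cells still had a Prlr UMI (exact 95% interval 44.5% to 49.5%), against 3.53% of tumor cells and 1.01% of T/NK cells. Before thinning the shares were 73.6%, 11.0% and 2.26%, at median depths of 877, 684 and 419 UMIs. T/NK cells served here as the class that should lack the gene.

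Pgr encodes the progesterone receptor, a target of the estrogen receptor, and lies on chromosome 9 from 8899833 to 8968611. Its level in hormone-sensing cells ranged from 30.5 CPM in replicate 5 to 174 CPM in replicate 1, with a median of 91.9 CPM. In tumor cells it ranged from 0 to 3.19 CPM. The groups did not overlap, and the fitted log2 difference was 5.40 ± 0.33 (SE), for which no p is given because of the filter. No Pgr UMI was found in 280 myoepithelial or 141 endothelial cells. After thinning, 2.91% of hormone-sensing cells had a Pgr UMI and 0 of 1782 T/NK cells did. Before thinning the shares were 11.3% (192 of 1693 cells) and 0.0904% (2 of 2212 cells).

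Esr1, the estrogen receptor alpha gene, lies on chromosome 10 from 4611593 to 5005614, and its RNA was found beyond the hormone-sensing class. In hormone-sensing cells it ranged from 17.7 to 91.4 CPM with a median of 48.3 CPM. In tumor cells it ranged from 0 to 3.82 CPM, with 22 UMIs in all. The groups did not overlap, and the fitted log2 difference was 3.84 ± 0.38 (SE, adjusted p = 3.71e-21). Fibroblasts, however, ranged from 0 to 114 CPM and so spanned the whole range of the hormone-sensing cells. The mean log2 difference between these classes, 1.24 ± 1.99 (SD, n = 7), was within its spread. Hormone-sensing cells were the higher in 6 of 7 mice. The exception was replicate 1, with 114 CPM in fibroblasts (10 UMIs) and 41.4 CPM in hormone-sensing cells. Because of it the mean of the 4 CB mice was higher in fibroblasts (51.6 against 41.0 CPM), while in the 3 WT mice it was lower (17.3 against 64.1 CPM).

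Cited1, a nuclear cofactor that binds the estrogen receptor, lies on chromosome X from 102247381 to 102252181 on the minus strand. It ranged from 397 CPM in replicate 1 to 1620 CPM in replicate 3 in hormone-sensing cells, with a median of 950 CPM. In tumor cells it ranged from 0 to 26.7 CPM, and 18 of the 32 UMIs of replicate 7 were in 1 cell. The lowest hormone-sensing sum was still far above the highest tumor sum. The fitted log2 difference, 6.04 ± 0.19 (SE, adjusted p = 1.63e-142), was measured against a mean of 15.3 ± 9.41 CPM in tumor cells (SD, n = 7). After thinning 25.3% of hormone-sensing cells and 0.505% of T/NK cells had a UMI.

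**Figure D2:**
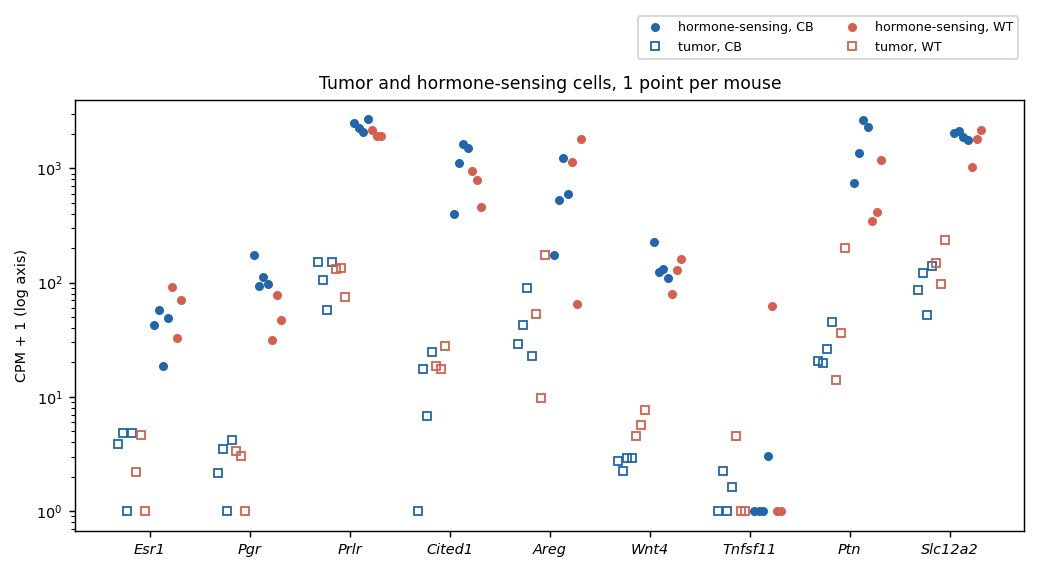
Points are CPM + 1 on a log axis for each of 7 mice, filled for hormone-sensing cells and open for tumor cells, colored by title series. The 2 classes stand apart for Prlr, Pgr, Esr1, Cited1, Wnt4, Ptn and Slc12a2 and overlap across mice for Areg. For Tnfsf11 they are mixed near 0, except for the hormone-sensing cells of replicate 5 at 60.9 CPM. How many of all genes stand apart was not counted.

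Areg encodes amphiregulin, an epidermal growth factor receptor ligand that relays estrogen signals, and lies on chromosome 5 from 91139599 to 91148432. It varied widely among mice, from 63.5 CPM in replicate 7 to 1819 CPM in replicate 8, with a median of 593 CPM. Tumor cells ranged from 8.78 CPM in replicate 7 to 174 CPM in replicate 8. Replicate 7 was thus the lowest in both classes, and the classes overlapped across mice although not within any mouse. The high values of replicate 8 leaned on 1 cell in each class, which held 42 of its 79 hormone-sensing UMIs and 12 of its 26 tumor UMIs. Without those cells the levels were 955 and 96.7 CPM, and in hormone-sensing cells replicates 3 and 5 were then higher. The fitted log2 difference with the mouse as a block was 3.61 ± 0.16 (SE, adjusted p = 5.61e-83).

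Wnt4, a secreted Wnt ligand induced by progesterone, lies on chromosome 4 from 137277489 to 137299726. It ranged from 79.2 to 223 CPM in hormone-sensing cells with a median of 127 CPM. In tumor cells it ranged from 1.27 to 6.68 CPM, with 22 UMIs in all. The groups did not overlap, and the fitted log2 difference was 5.39 ± 0.28 (SE, adjusted p = 2.96e-65).

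Ptn encodes pleiotrophin, a heparin-binding growth factor, and lies on chromosome 6 from 36714929 to 36810220 on the minus strand. It ranged from 347 CPM in replicate 5 to 2621 CPM in replicate 3 in hormone-sensing cells, with a median of 1175 CPM. Tumor cells were at or under 44.6 CPM in 6 mice and reached 200 CPM in replicate 8. The groups did not overlap, and the fitted log2 difference was 4.85 ± 0.18 (SE, adjusted p = 5.45e-114). Single barcodes weighed on the values of both classes. In tumor cells 58 of the 68 UMIs of replicate 7 and 17 of the 30 of replicate 8 sat in 1 cell each, and without that cell the levels were 5.20 and 98.5 CPM. The cell of replicate 7 held 12999 UMIs, 78 of them of Krt8 and Krt18. By these counts it was also the tumor cell with 18 of the 32 Cited1 UMIs of that mouse. It likewise held 2 of the 4 Pgr, 2 of the 7 Esr1 and 4 of the 17 Areg UMIs. Whether this barcode held RNA of more than 1 cell was not tested. In hormone-sensing cells 1 cell each held 63 of the 89 UMIs of replicate 1, whose level fell from 736 to 222 CPM without it, and 33 of the 65 of replicate 7, which fell from 413 to 208 CPM.

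Slc12a2 encodes the sodium, potassium and chloride cotransporter NKCC1. It ranged from 1024 CPM in replicate 5 to 2142 CPM in replicate 8 in hormone-sensing cells, with a median of 1885 CPM. Tumor cells ranged from 51.5 to 234 CPM with a median of 122 CPM. The groups did not overlap, and the fitted log2 difference was 3.79 ± 0.15 (SE, adjusted p = 1.51e-101). After thinning 38.9% of hormone-sensing cells, 2.79% of tumor cells and 1.01% of T/NK cells had a UMI.

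Tnfsf11 encodes RANK ligand, the progesterone signal that acts on neighboring cells, and lies on chromosome 14 from 78277445 to 78308043 on the minus strand. Its 18 UMIs in hormone-sensing and tumor cells together were under the limit of 20, so it was not tested. Hormone-sensing cells held 13 of them, 10 in 6 cells of replicate 5 (60.9 CPM), 3 in replicate 4 (2.01 CPM) and none in the other 5 mice. In the 1693 cells 8 had a UMI, of which 7 also had one of Prlr and 6 one of Cited1. By a two-sided exact sign-flip test over mice on log2(CPM + 1) the 2 classes gave p = 0.75. With no filter on low counts the fitted log2 difference was 2.63 (adjusted p = 0.0304), with 10 of the 13 UMIs from replicate 5.

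The same exact test gave p = 0.0156, the smallest that 7 mice allow, for each of the 7 members with more than 20 UMIs in both classes. It was run on the members only, so the share of all genes that reach this p is not known. By the fit 26.4% of all genes tested were called. The fitted p-values are not bound by that limit. The 2 title series pointed the same way for these 7 members. In hormone-sensing cells Ptn ranged from 736 to 2621 CPM in the CB mice and from 347 to 1175 CPM in the WT mice, and the series overlapped. Areg overlapped as well, at 174 to 1243 CPM and 63.5 to 1819 CPM. Pgr was at 91.9 to 174 CPM in the CB mice and at 30.5 to 76.2 CPM in the WT mice.

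**Figure D3:**
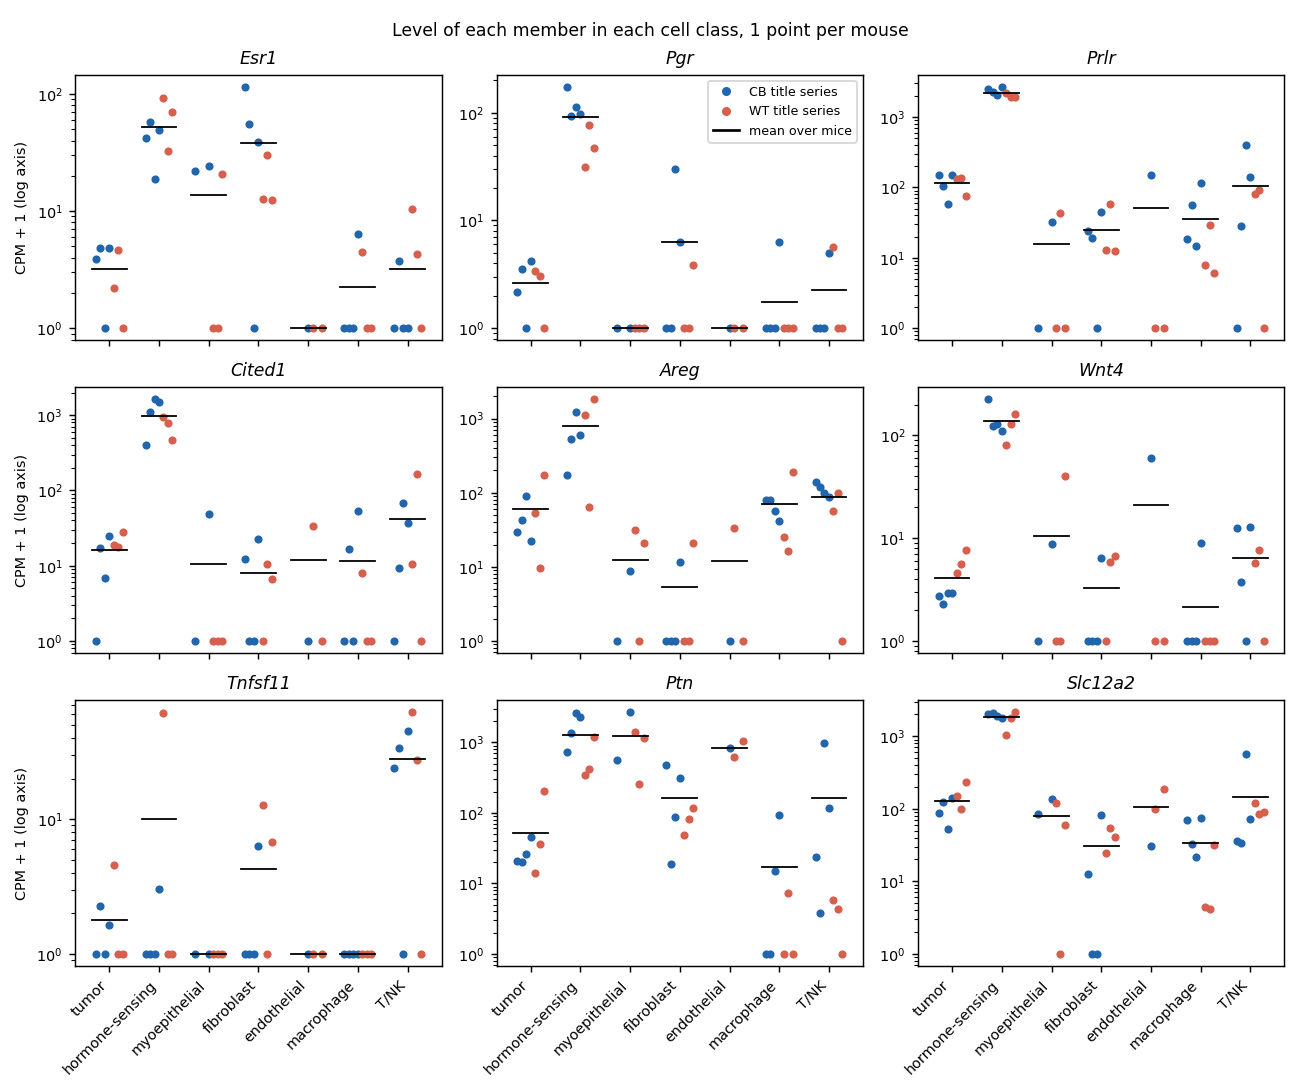
Each panel shows 1 member, with CPM + 1 on a log axis for 7 cell classes, 1 point per mouse with at least 10 cells of the class, colored by title series, and a line at the mean. Hormone-sensing cells have the highest mean for 8 members, though not beyond the spread over myoepithelial cells for Ptn, fibroblasts for Esr1 and T/NK cells for Areg, and T/NK cells have the highest mean of Tnfsf11.

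Single hormone-sensing cells rarely showed the whole set. Of the 1693 cells, 124 had no UMI of any member, 413 had 3 members, 18 had 7 and none had 8 or 9. Among the 192 cells with a Pgr UMI, 90.1% also had one of Prlr, 87.0% one of Slc12a2, 55.7% one of Cited1 and 16.1% one of Esr1. Deeper cells hold more of every gene, so these shares describe detection at this depth. At a finer resolution of 1.0 the class split into 2 clusters, of which one was richer in the fibrinogen genes Fgb and Fgg. Its cells held a median of 1494 UMIs against 569 in the other. For all 9 members the mean log2 difference between these 2 clusters was smaller than its SD over 6 mice. Prlr, Pgr, Areg and Ptn were nevertheless higher in the fibrinogen-rich cluster in 5 of 6 mice each, the tally also of Fgb and Fgg. Cited1 and Slc12a2 were higher there in 4 mice, Wnt4 in 3, Esr1 in 2 and Tnfsf11 in 0. Prlr measured 1989 ± 377 CPM in the fibrinogen-poor cluster and 2426 ± 304 CPM in the other (SD, n = 6).

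Over the 43 sums of class and mouse, the genes whose log2 levels ran closest to a member were mostly other genes of the same class. For Prlr they were Krt19, Wfdc2 and Tspan1 (Pearson r of 0.93, 0.91 and 0.91), for Cited1 R3hdml, Tspan1 and Ffar4 (0.92, 0.91 and 0.90) and for Pgr Cxcl15, Cysrt1 and Slc5a5 (0.93, 0.91 and 0.91). For Wnt4 they were Rhbdl2, Tuba8 and Gsta4, and for Slc12a2 Mtmr7, Krt7 and Upk2. Ptn was matched less closely, by Cnn3, Cd151 and Rhoc (0.82, 0.77 and 0.75), Areg by Arg2, Ctse and Gsr (0.80, 0.76 and 0.76) and Esr1 by Tcea3, S100a6 and Il33 (0.79, 0.78 and 0.77). The sums of a class share their cells' type, and sums of a mouse share a library, so these values are descriptions.

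Other genes of the same pathways were read in the same fit. Of 17 genes of prolactin and STAT5 signaling, all tested, 5 were higher and 5 lower in hormone-sensing cells, with a median log2 difference of 0.48 against -0.18 for all genes. Jak2, the kinase bound to the prolactin receptor, measured 57.6 against 11.8 CPM (log2 difference 1.84 ± 0.29, higher in 7 of 7 mice), and the inhibitor genes Socs3 and Cish, both induced by STAT signaling, were higher in 7 of 7. Pim1, a kinase gene induced by STAT5, fell by 2.51 on the log2 scale, and Ghr, the growth hormone receptor gene, fell by 1.63, each in 7 of 7 mice. The phosphatase gene Ptpn1 was higher (log2 difference 1.38), and Socs2 (-0.88) and Stat3 (-0.49) were lower, in 4 and 6 of 7 mice.

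Of 21 steroid receptor partners and relatives 19 were tested, 1 was higher and 6 were lower, with a median log2 difference of -0.10. The 1 was Nrip1, an estrogen-induced corepressor gene, at 213 against 121 CPM (higher in 6 of 7 mice). The gene for the glucocorticoid receptor, Nr3c1, measured 26.3 against 81.6 CPM and that for the factor Tfap2c 20.4 against 118 CPM, both lower in 7 of 7. Ncoa1 (log2 difference -1.10) and Fkbp5 (-0.95) were lower in 6 of 7. Greb1 and Esr2 had too few UMIs to be tested.

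Of 27 genes for receptors and processing 25 were tested, 5 were higher and 7 lower in hormone-sensing cells, with a median log2 difference of -0.50. Tnfrsf11a, which encodes the RANK ligand receptor RANK, measured 0.540 CPM in hormone-sensing cells and 16.7 CPM in tumor cells (log2 difference -3.40 ± 0.60, lower in 7 of 7 mice). Egfr, the receptor gene for amphiregulin, measured 5.70 against 27.1 CPM, lower in 7 of 7, and stood at 115 CPM in fibroblasts. The genes for Adam10, a membrane protease that sheds receptor ligands, and for the pleiotrophin-binding proteoglycan Sdc1 were higher, at 479 against 88.9 CPM and 290 against 68.6 CPM, each in 7 of 7. Erbb3 (log2 difference 0.72) and Ror2 (2.75, in 4 of 7 mice) were also higher, and Sdc3 (-2.46) and the Wnt receptor gene Fzd7 (-1.70) lower.

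Among 21 related secreted ligands 13 were tested, 6 were higher and 2 lower, with a median log2 difference of 0.98. Wnt7b (84.7 against 13.5 CPM) and Wnt5a (47.1 against 5.36 CPM) were higher in 7 of 7 mice. Wnt5b (11.5 against 44.1 CPM) and the EGF receptor ligand gene Hbegf (444 against 933 CPM) were lower in 7 of 7. Calca, the calcitonin gene, was called higher at 87.5 against 1.43 CPM, but in 3 of 7 mice only, and Wnt11 measured 10.1 against 0.213 CPM, in 5 of 7. As with Pgr, the calls of Calca (9 tumor UMIs) and Wnt11 (2) say little, since these genes passed the filter only through hormone-sensing cells. The same holds in the other direction for Tnfrsf11a, Sdc3 and Egfr, with 4, 11 and 15 hormone-sensing UMIs, while Ror2 had 17 and 4 UMIs in the 2 classes. Of 15 genes of chloride and cation transport 13 were tested, 2 were higher and 3 lower. Atp1b1, a subunit gene of the sodium pump, measured 480 against 178 CPM and was higher in 7 of 7, while Stk39, the gene for a kinase that activates Slc12a2, measured 42.7 against 201 CPM and was lower in 7 of 7. The water channel gene Aqp3 was higher (log2 difference 1.64, 6 of 7 mice), while Aqp5 (-1.21) and the potassium channel gene Kcnn4 (-3.67) were lower in 7 of 7.

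The next comparison set myoepithelial cells, the contractile layer around ducts, against tumor cells in 5 mice, which shares its tumor sums with the comparison above. Of 12531 genes 12.1% were called, 4.52% as higher and 7.61% as lower, and 3 of the 7 members tested were called. Ptn ranged from 255 to 2677 CPM in myoepithelial cells with a median of 1169 CPM. The tumor sums of the same mice averaged 62.6 CPM, and no mouse went the other way. The fitted log2 difference was 4.31 ± 0.30 (SE, adjusted p = 1.11e-43, higher in 5 of 5 mice). Between hormone-sensing and myoepithelial cells the mean log2 difference of Ptn was within its spread, at -0.23 ± 1.06 (SD, n = 5). The myoepithelial mean was the higher in the WT mice (945 against 645 CPM), in cells with at least 500 genes (1710 against 1279 CPM) and without replicate 1, 3 or 7, so the order of these classes is not settled. Outside the WT mice these means cover different mice, since replicates 2 and 3 had 3 myoepithelial cells each and no sum. In myoepithelial cells, too, 1 cell each held 24 of the 47 Ptn UMIs of replicate 5 and 30 of the 59 of replicate 8.

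Prlr and Areg were lower in myoepithelial than in tumor cells. Prlr averaged 14.8 against 128 CPM (log2 difference -3.28 ± 0.56, lower in 5 of 5 mice) and Areg 11.5 against 56.9 CPM (-2.48 ± 0.80, lower in 5 of 5). They had 5 and 3 myoepithelial UMIs and passed the filter only through the tumor cells, so no p is given. The call of Areg was lost in 6 of 15 alternatives: without replicate 1 or 8, with DESeq2, without the block, and in the CB or the WT mice alone. Esr1, Cited1, Wnt4 and Slc12a2 did not pass the test, and Pgr and Tnfsf11, without a myoepithelial UMI, were not tested. The exact sign-flip test cannot go below p = 0.0625 with 5 mice. Of the pathway lists, prolactin and STAT5 signaling had 1 gene higher and 1 lower of 17 tested, steroid receptor partners 1 and 3 of 20, ligand receptors and processing 4 and 1 of 23, related ligands 2 and 1 of 9, and transport 1 and 5 of 10. Some listed genes passed the filter only through the class where they were high, so these counts say little. Cish, for instance, stood at 1.57 CPM in myoepithelial cells. The myoepithelial sums also held markers of other classes: the 9 macrophage markers summed to 2547 to 9417 CPM there against 1358 to 9990 CPM for its own 9 markers, and 12 tumor markers to 11362 to 40745 CPM. The part of these in the values was not tested.

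Against fibroblasts, the connective tissue cells of the tumor, 33.8% of 13797 genes were called, 13.7% as higher and 20.1% as lower, and 5 of the 7 members tested. These sums share the tumor cells as well. Esr1 averaged 36.9 ± 38.8 CPM in fibroblasts and 2.19 ± 1.75 CPM in tumor cells (SD, n = 7). The fibroblast value was higher in 6 mice and 0 in both classes of the other. The fitted log2 difference was 3.74 ± 0.51 (SE, adjusted p = 3.92e-12), and the exact sign-flip test gave p = 0.0312.

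Ptn in fibroblasts ranged from 18.1 to 481 CPM around a median of 86.9 CPM, which overlapped the tumor range. The highest value, in replicate 1, came from 42 UMIs of which 37 were in 1 cell, and without that cell it was 63.7 CPM. Ptn was called higher with a fitted log2 difference of 1.93 ± 0.28 (SE, adjusted p = 3.40e-11), but was higher in 5 of 7 mice only and gave p = 0.0625 by the exact sign-flip test. In the WT mice alone the call was lost (log2 difference 0.64, adjusted p = 0.280 by edgeR). Prlr (23.5 CPM, log2 difference -2.05), Areg (4.39 CPM, -2.85) and Slc12a2 (29.8 CPM, -1.71) were lower than in tumor cells in 7 of 7 mice each. Of the 1027 fibroblasts 9 held 5 or more UMIs of the epithelial keratins Krt8 and Krt18. Without these 9 Prlr fell from 28 to 13 UMIs (13.4 CPM, log2 difference -3.15) and Slc12a2 from 43 to 22 (17.1 CPM, -2.71). Cited1 and Wnt4 did not pass the test, and Pgr and Tnfsf11 were not tested. Areg, with 9 fibroblast UMIs, passed the filter only through the tumor cells. Of the pathway lists, prolactin and STAT5 signaling had 6 genes higher and 1 lower of 17 tested, steroid receptor partners 1 and 3 of 19, ligand receptors and processing 9 and 3 of 23, related ligands 7 and 6 of 15, and transport 2 and 8 of 13. These counts, too, include genes that passed the filter only through the class where they were high. Examples are Wnt2, at 0.082 CPM in tumor cells, and Tgfa and Epgn, at 0 CPM in fibroblasts.

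Tumor cells were then set against T/NK cells, to measure how far the tumor values stood above those in a class of another lineage. Of 13874 genes 40.5% were called, 26.1% as higher and 14.3% as lower in tumor cells, and 5 of the 8 members tested, among them Tnfsf11 and its filter described below. Of the pathway lists, prolactin and STAT5 signaling had 3 genes higher and 9 lower of 17 tested, steroid receptor partners 8 and 3 of 19, ligand receptors and processing 15 and 1 of 23, related ligands 7 and 1 of 10, and transport 6 and 2 of 12. Tnfrsf11a, Btc, Nrg1 and Nr3c2, at 0 CPM in T/NK cells, passed the filter only through tumor cells, so counts with such genes say little. The T/NK sums held a few barcodes of another kind. Of the 2212 T/NK cells 16, with a median of 2800 UMIs against 418 in the rest, held 5 or more keratin UMIs and 6.52% of the class's UMIs. The largest in replicate 3 held 11999 UMIs, 142 of them keratin and none of Cd3d, Cd3e, Cd3g or Trbc2, and gave all 29 Ptn, 12 Prlr and 17 Slc12a2 UMIs of replicate 3. Another gave 42 of the 49 Cited1 UMIs of replicate 7.

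Leaving these 16 out, a choice made after seeing the data, changed the call or the direction of Slc12a2, Cited1, Ptn and Esr1 and moved Prlr. Prlr in T/NK cells went from 105 ± 139 to 26.6 ± 50.9 CPM (SD, n = 7) and its log2 difference from 0.66 (adjusted p = 0.0226) to 1.99 (adjusted p = 1.68e-12). Slc12a2 went from 142 ± 189 to 35.7 ± 34.1 CPM and its log2 difference from 0.45, which did not pass the test, to 2.12 (adjusted p = 2.83e-13). The first Prlr call was lost in 11 of 20 alternatives: without replicate 1, 2, 4, 5 or 7 (log2 differences of 0.32 to 0.71), with DESeq2, filterByExpr or no filter, without the block, and in the CB or the WT mice alone. Both genes were, without the 16, higher in tumor cells in 7 of 7 mice, with an exact sign-flip p of 0.0156. Barcodes were dropped for epithelial keratins from the T/NK sums and not from the tumor sums. A lower T/NK value of genes of epithelial cells was thus built in, so the p-values without the 16 say little. The highest T/NK value of Prlr was still 139 CPM. The part of such barcodes in the remaining values was not tested. Cited1 had been called lower in tumor cells (-1.35, adjusted p = 0.000506) and stood at 0.73 (adjusted p = 0.174) without them, and leaving out replicate 7 alone gave -0.16. That call was also lost with DESeq2 and in the CB mice. Ptn had been called lower (-0.73, adjusted p = 0.0343) and stood at 0.49 (adjusted p = 0.223), and at 0.38 without replicate 3 and -0.45 without replicate 4. Esr1 went from 4 to 1 T/NK UMIs and its log2 difference from -0.01 to 1.87. Esr1 and Wnt4 passed the test in neither fit, and Pgr was not tested.

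**Figure D4:**
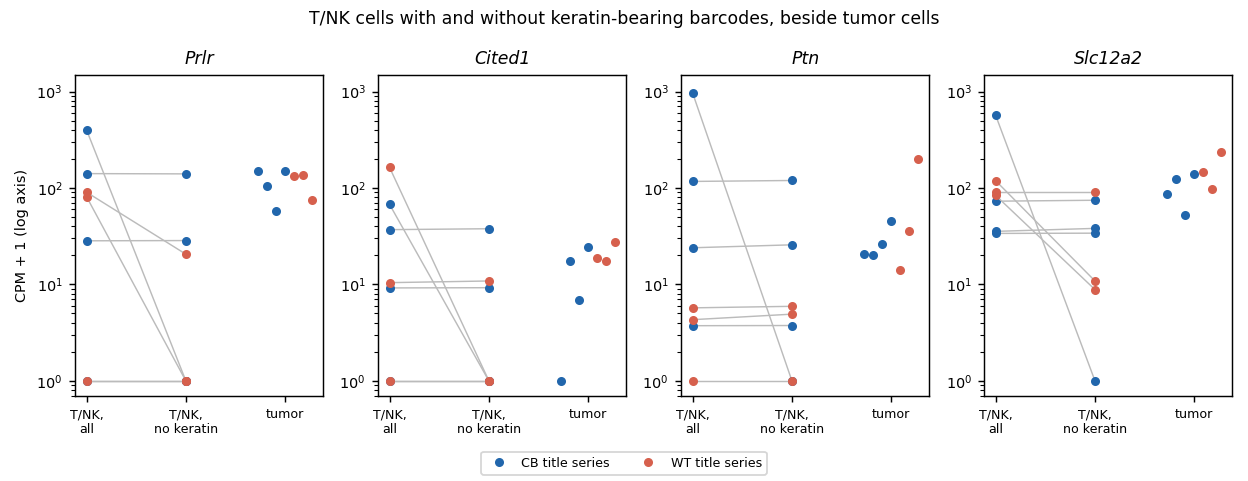
For Prlr, Cited1, Ptn and Slc12a2 the points give CPM + 1 on a log axis in each of 7 mice, for all T/NK cells, for T/NK cells without the 16 barcodes with 5 or more keratin UMIs, and for tumor cells; gray lines join a mouse. The highest T/NK value of each gene falls to 0 without those barcodes, from 399 CPM for Prlr, 162 CPM for Cited1, 964 CPM for Ptn and 565 CPM for Slc12a2.

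Tnfsf11 and Areg did not follow that pattern. Tnfsf11 in T/NK cells measured 61.3 CPM in replicate 5, 44.0 in replicate 4, 32.8 in replicate 2, 26.5 in replicate 7, 23.0 in replicate 1 and 0 in replicates 3 and 8. Those 2 had the fewest T/NK cells, 40 and 26. Tumor cells held 5 UMIs in all, so that the gene passed the filter only through its T/NK UMIs. The fitted log2 difference was -5.13 ± 0.54 (SE), given without a p for that reason. Tumor cells were lower in 5 mice and equal at 0 in the other 2. Without the keratin-bearing barcodes the T/NK cells kept all 46 UMIs.

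Most of these UMIs came from a single cluster. It held 302 of the T/NK cells and was led by Il17a, Cd163l1, Icos, Trdc and Tcrg-C1, genes of T cells that make interleukin 17 and of the gamma delta receptor. It carried 35 of the 46 Tnfsf11 UMIs in 23 cells, with 185 ± 136 CPM (SD, n = 6) over the mice with at least 10 of its cells. The same cluster held 79 of the 122 Areg UMIs of the class and measured 424 ± 322 CPM (SD, n = 6). The clusters led by Gzmb, Xcl1 and Cd7 and by Lef1, Gimap6 and Ccr7 held 7 and 4 UMIs of Tnfsf11 and 33 and 10 of Areg. In replicate 2, 25 of the 43 Areg UMIs and 7 of the 12 Tnfsf11 UMIs of T/NK cells were in 1 cell of this cluster, which held 9 UMIs of T cell receptor complex genes and no Krt8 or Krt18.

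**Figure D5:**
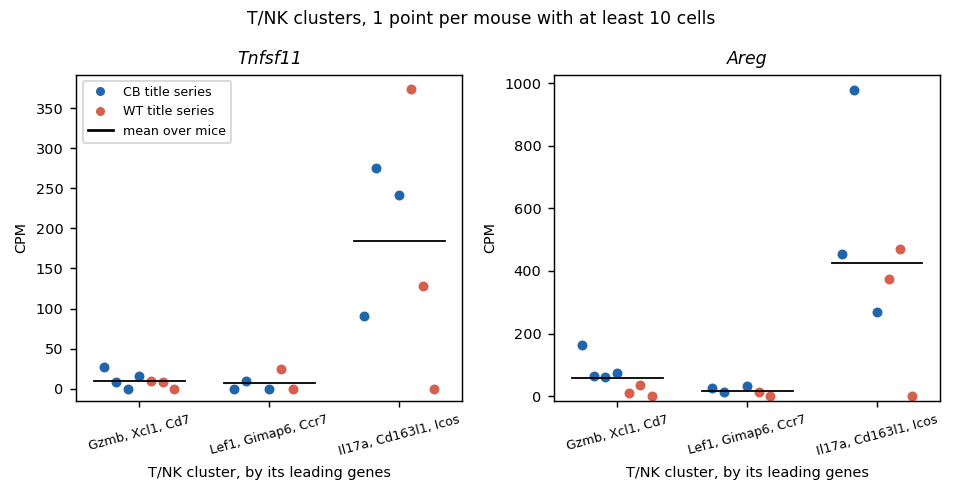
Points are CPM of Tnfsf11 (left) and Areg (right) in 3 T/NK clusters named by their leading genes, 1 point per mouse with at least 10 cells, with a line at the mean. In the cluster led by Il17a the means are 185 and 424 CPM, and replicate 8, with 11 cells, is at 0 for both.

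Areg over the whole T/NK class averaged 85.6 ± 45.3 CPM and 59.2 ± 56.6 CPM in tumor cells (SD, n = 7). The fitted log2 difference of -1.38 ± 0.25 (SE, adjusted p = 2.47e-07) and the 6 of 7 mice with the lower tumor value stood against an exact sign-flip p of 0.891. The 1 mouse that went the other way, replicate 8, had no Areg UMI among the 11264 UMIs of its 26 T/NK cells, where a single UMI would have given about the class mean, so its direction is not settled at this depth. Macrophages were at a like level, 68.9 ± 59.0 CPM, with UMIs in 7 of 7 mice. Their cluster of 860 cells led by Retnla held 70 Areg UMIs (124 ± 121 CPM, SD, n = 7). The cluster of 1777 cells led by Ms4a7 held 36 (36.0 ± 28.4 CPM). At resolutions 0.4 and 1.0 a cluster led by Retnla was named monocyte or dendritic instead. Fibroblasts had 9 Areg UMIs in all. After thinning, 9.76% of hormone-sensing, 1.80% of T/NK, 1.48% of macrophage and 0.832% of tumor cells had an Areg UMI.

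Hormone-sensing cells stood above the next class by more than the spread, with ranges apart, for Prlr, Pgr, Cited1, Wnt4 and Slc12a2. For Wnt4 the next class was endothelial cells, with 2 UMIs and a mean log2 difference of 4.84 ± 3.49 (SD) over 3 mice. How many of all genes stand apart in this way was not counted. Below the first place, neighboring classes mostly did not differ by more than the SD of their log2 difference, and the low values of endothelial cells rested on 3 mice. For Ptn, hormone-sensing (1279 ± 892 CPM, n = 7), myoepithelial (1216 ± 939 CPM, n = 5) and endothelial cells (832 ± 207 CPM, n = 3) all stood above fibroblasts (163 ± 169 CPM, n = 7), with the SD over mice. Where n differs, the means cover different mice. Of the 33 endothelial Ptn UMIs of replicate 8, 18 were in 1 cell. Macrophages, at 15.9 ± 33.6 CPM, had Ptn in 3 of 7 mice.

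Over all cells of a mouse, Prlr ranged from 118 to 986 CPM and Ptn from 53.8 to 903 CPM. Barcodes with fewer than 200 genes, which may hold free RNA or damaged cells, held Prlr at 62.0 to 504 CPM and Ptn at 44.1 to 456 CPM. For each member their mean was above the mean of tumor cells. Slc12a2 averaged 194 CPM in these barcodes, 125 CPM in tumor cells and 1828 CPM in hormone-sensing cells. Cited1 averaged 57.2, 15.3 and 976 CPM. The part of free RNA in the low values of a class was not tested.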

How the data were processed

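Drop-seq libraries were made from 7 digested tumors, 1 mouse each, and sequenced separately. The authors deposited 1 matrix of UMI counts per mouse (whole numbers, not normalized). The submitters' processing notes name STAR, FastQC and GRCh37.p13/hg19, whereas the study's methods give the mouse build mm10 with the PyMT sequence added, and the symbols are those of mouse genes. Strand use in counting is not given in the sources used here. Gene positions are from GENCODE vM21 (GRCm38) and promoters from RefSeq (GRCm38.p6).

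A barcode counted as a cell if it had 200 or more and at most 6000 genes. Cells were clustered in Seurat 5.3.0 (R 4.3.3) on 20 principal components at resolution 0.6, with the 9 members left out of the variable genes, and clusters were named from marker lists. The study used 9 components. In an earlier pass over these data 9 left the endothelial and myoepithelial lists without a cluster, so 20 were taken. No doublet caller was run beyond the upper limit on genes. UMIs were summed per mouse and class with at least 10 cells. Classes were compared with edgeR 4.0.16 (quasi-likelihood test, mouse as a block, because the classes came from the same animals), over genes with at least 20 UMIs and a UMI in at least 3 sums. P-values were adjusted by Benjamini-Hochberg over all genes tested, with calls at 0.05. An exact two-sided sign-flip test on log2(CPM + 1) was added after seeing the data, as was the fit without barcodes with 5 or more Krt8 and Krt18 UMIs. Shares of cells were also computed after thinning each cell to 300 UMIs, with exact 95% binomial intervals, and these cover counting error only. The genes most like a member were the 3 with the highest Pearson r of log2(CPM + 5). The scripts were tested on simulated data, drawn for both classes from 1 shared profile with a dispersion of 0.1. These data held no mouse effect and no mixed barcodes, so the rates that follow need not hold for the real counts. For myoepithelial against tumor cells the fit called 22 of 93 genes changed 4-fold and 2 of 103 changed 2-fold. In hormone-sensing against tumor cells it called 62 of 89 and 10 of 106. Of unchanged genes 4 of 12333 and 5 of 13845 were called. A gene that did not pass the test can therefore still differ. DESeq2 1.42.0, other filters, clusterings and subsets of mice were alternatives. The members and lists were chosen with earlier results of these data known. Named were all 9 members and, from 5 pathway lists, up to 4 genes a direction with the smallest p in hormone-sensing against tumor cells.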

Additional observations from a re-analysis of the deposited data

Results flagged for a closer look

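In 51 groups of a member and a class with sums from 4 to 7 mice, Dixon's test set 17 samples apart from the others of their group. Its rate of about 1 in 20 groups by chance assumes normal values, which many of these near-zero counts are not, so 17 cannot be read against it. Replicate 3 was high in T/NK cells for Prlr (399 CPM), Ptn (964 CPM) and Slc12a2 (565 CPM), all from the single keratin-bearing barcode described above, and in fibroblasts for Pgr (29.0 CPM, 1 UMI). Replicate 7 was high in T/NK cells for Cited1 (162 CPM), with 42 of its 49 UMIs in 1 barcode. Replicate 4, which held most hormone-sensing cells, was high in macrophages for Pgr (5.36 CPM), Cited1 (52.3 CPM), Wnt4 (8.05 CPM) and Ptn (91.2 CPM), and in myoepithelial cells for Cited1 (47.0 CPM). Replicate 5 was high for Tnfsf11 in hormone-sensing cells (60.9 CPM) and in tumor cells (3.55 CPM, 3 UMIs), and low for Slc12a2 in hormone-sensing cells (1024 CPM). It was also high for Esr1 in T/NK cells (9.43 CPM). Both of those 2 UMIs were in 1 barcode with 54 keratin UMIs and none of Cd3d, Cd3e, Cd3g or Trbc2. Replicate 8 was high for Ptn in tumor cells (200.4 CPM), for Areg in macrophages (191 CPM) and for Wnt4 in myoepithelial cells (39.6 CPM).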

How the results depend on the processing

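In the comparison of hormone-sensing with tumor cells the 7 members with more than 20 UMIs in both classes kept their direction and their call in 19 of 19 alternatives. Among these, the limit of at least 20 cells per sum left every sum in place and so repeated the main fit. The others reused the same mice, so they are not independent of it. The counts of genes called moved more. Without the replicate block, hormone-sensing against tumor cells gave 2409 calls in place of 3703, and that fit also lost the calls of Areg in myoepithelial and T/NK cells and of Prlr and Ptn against T/NK cells. The pairing comes from the design, since classes of 1 number come from 1 mouse. The WT mice alone gave 780 calls for hormone-sensing cells, 395 for myoepithelial cells (1520 in the main fit), 2205 for fibroblasts (4660) and 2075 against T/NK cells (5616). The CB mice alone gave 704 for myoepithelial and 3500 for T/NK cells, and cells with at least 500 genes gave 3526 for T/NK cells. For myoepithelial cells DESeq2 gave 885, edgeR's filterByExpr 995, and leaving out 1 replicate 939 to 1286, the lowest without replicate 4 and 966 without replicate 1. The split of higher and lower calls moved by over 10 points with filterByExpr for hormone-sensing cells (1470 and 1591, against 1355 and 2348), myoepithelial cells (531 and 464, against 567 and 953) and T/NK cells (2070 and 1979, against 3627 and 1989). It also moved for myoepithelial cells with DESeq2 (595 and 290) and in CB mice (402 and 302), and in WT mice for fibroblasts (1242 and 963, against 1891 and 2769) and T/NK cells (1106 and 969).

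Against T/NK cells 2 called members turned direction, and Esr1, not called at -0.01, ranged from -0.54 to 1.87. Cited1 went from -1.35 to 0.73 without keratin-bearing barcodes, 0.033 with 9 principal components and 1.06 at 500 genes. Ptn went from -0.73 to 0.87 with DESeq2, 0.49 without those barcodes, -1.28 to 0.38 when 1 replicate was left out (0.38 without replicate 3), 2.97 in WT mice, 1.73 at 500 genes, 0.33 with the members kept among the variable genes and 1.09 as a mean log2 difference. The Ptn call was also lost with no filter on low counts. Beyond the barcodes, the cause was not tested. Slc12a2 (0.45, not called) was called at 2.12 without those barcodes, 0.88 without replicate 3, 1.26 with 9 principal components, 3.89 at 500 genes and 0.96 with the members kept among the variable genes. Ptn in fibroblasts fell to 0.64 (adjusted p = 0.280) in WT mice, and Cited1 there went from -0.82 to -2.30 (adjusted p = 0.0286) at 500 genes. With 9 principal components, the number the study used, no myoepithelial or endothelial class formed, so that alternative was not run for myoepithelial cells. Depth limits Tnfsf11, Esr1, Pgr and Wnt4 outside their main classes, where sums held few UMIs.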
